A study of Mus musculus with 4 samples.

Results

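The sites described here are 8374 CCGG positions on the mouse autosomes that lie in clusters of CCGG and whose tag counts hold fractions of a tag. The sites were chosen by their tag counts: a site was taken when its count was off a whole number by more than 1e-06 in at least 1 of 4 libraries and when 5 or more CCGG, itself included, lay within 500 bp on either side. They are 8374 of 1594137 CCGG positions in all, and 3.00% of the 279443 autosomal positions with that many neighbours. The other 271069 positions of the same density held whole tags only and are called whole-tag sites. The choice used the measured counts, so the fractions themselves are no finding.

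The libraries came from MC1-ZE7 mouse embryonic stem cells of strain 129S6/SvEvTac at passage 31, a line in which the promoter of Zscan4c drives the fluorescent protein Emerald. Cells grew without feeder cells, with leukemia inhibitory factor, and were sorted by fluorescence into an Emerald-high and an Emerald-negative fraction, so that both fractions carry the reporter and share line, strain and passage. DNA of each fraction was cut with either HpaII, an enzyme blocked by methylation of the inner CG of CCGG, or MspI, for which this methylation makes no difference, and tags next to the cuts were sequenced (HELP tagging). The question was how DNA methylation compares between Zscan4-positive and Zscan4-negative cells. Each combination of fraction and enzyme had 1 library, so no difference below has a replicate check and no test was run. A reporter from 1 promoter in 1 line marks Zscan4c promoter activity only as far as Emerald follows it.

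CCGG clusters are found mainly in CpG islands, which are mostly unmethylated in mammalian cells, and in GC-rich repeats. Tandem repeats (minisatellites) carry a short unit many times in a row, and a unit that holds CCGG puts such sites at even distances. Segmental duplications and multicopy genes instead carry whole stretches of sequence at several places, so that a short tag from one copy can match the others. Repeats are commonly methylated in somatic mammalian cells, and embryonic stem cells are known for variable methylation.

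The fractions of a tag could be set beside the number of places that held the same value. Each deposited count is the sum of 2 parts, and 68.7% of the 8374 sites had fractions in 1 part only. Over all parts with fractions, 10998 in number, the smallest number that made the values whole in all 4 libraries was 2 in 50.7%, 3 in 21.3% and between 2 and 10 in 97.6%. Of 6770 such parts with at least 4 MspI tags, 93.8% had another position with the same value in all 4 libraries. In 3290 of the 6352 parts with such a position (51.8%), the number of positions with that value equalled the number that made it whole. The 5 largest groups of equal values among all sites told nothing of copies, because each of their positions held 0.5 or 1 tag over the 4 libraries, a value that unrelated sites reach too. Fractions appeared in all 4 libraries at 1650 sites and in 1 library only at 1977. They appeared in an MspI library at 6737 sites and in HpaII libraries only at 1637. The smallest distance from a whole number was 0.0833 tag among the chosen sites and 0 among the whole-tag sites.

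Most of the sites were detected in each library, but having a tag in at least 1 of 4 libraries was part of their choice. In the Emerald-high fraction 89.8% of them had HpaII tags and 91.9% had MspI tags, and in the Emerald-negative fraction 89.6% and 90.9% did. A site held a median of 3.5 HpaII and 5.33 MspI tags in the Emerald-high fraction and 6.5 and 4.5 in the Emerald-negative one, with highest values of 2727.5, 1253.5, 5292.7 and 1126.7. These sites held 1.69% of the 5662614 tags of the Emerald-high HpaII library (exact Clopper-Pearson 95% confidence interval 1.680 to 1.701) and 0.952% of the 9372711 tags of its MspI library (0.945 to 0.958). In Emerald-negative cells they held 2.09% of 9535691 HpaII tags (2.081 to 2.099) and 0.856% of 9307616 MspI tags (0.851 to 0.862). In both fractions the sites therefore took a larger share of HpaII than of MspI tags. Tags carry no molecular identifiers and a divided tag counts at several positions, so all intervals here cover counting error only.

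Scaled to library totals, HpaII cut the shared-tag sites more than the genome average in both fractions, and more so in Emerald-negative cells. The level, the log2 ratio of scaled HpaII to scaled MspI tags summed over the sites, was 0.83 in Emerald-high cells (95% Poisson interval 0.816 to 0.842), and the Emerald-negative level was 1.29 (1.28 to 1.30). The difference, Emerald-high minus Emerald-negative, was -0.46 (-0.476 to -0.440), made up of -0.31 between the HpaII libraries and 0.15 between the MspI libraries. With tags scaled to the whole-tag sites with 10 or more CCGG instead, the same difference was 0.27, so its sign depends on the scaling. Those reference sites stood at -0.73, and scaling to them adds the same amount to every difference below. The 6005 sites with 5 to 9 CCGG stood at 0.81 and 1.24 (difference -0.43), and the 2369 with 10 or more at 0.88 and 1.45 (difference -0.57). At the edge of the rule, 2262 shared-tag sites with exactly 5 CCGG had levels of 0.47 and 0.83, and 3588 with exactly 4, just outside it, had 0.17 and 0.34.

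Shared-tag sites were cut less than whole-tag sites of the same density with similar MspI tags. For this comparison, 6301 shared-tag sites (75.2%) with at least 4 MspI tags over both MspI libraries were set beside 136465 whole-tag sites weighted to the same density and MspI classes. The shared-tag sites held 92155 HpaII and 87465 MspI tags in the Emerald-high fraction and 190953 and 78256 in the Emerald-negative one. Their levels were 0.80 and 1.25, and those of the weighted whole-tag sites 1.38 and 1.81. The gap was -0.58 in Emerald-high cells (-0.593 to -0.560), or 1.49-fold lower cutting, and -0.56 in Emerald-negative cells (-0.572 to -0.542), or 1.47-fold lower. Between the fractions the gap differed by -0.02 (-0.0418 to 0.00233), so the fractions shifted by nearly the same amount at both kinds of sites, -0.45 and -0.43. A common scaling factor does not enter these gaps. When only shared-tag sites with fractions in an MspI library were kept, the gaps were -0.61 and -0.59. HpaII counts then played no part in the choice of the shared-tag sites. The whole-tag sites were still chosen as free of fractions in the HpaII libraries too.

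The gap was present at most levels of coverage, but not at all of them. Of 12 classes of density and MspI tags with at least 20 sites of each kind, 11 had a gap below 0 in each fraction. At 10 or more CCGG it went from -0.38 (Emerald-negative, 4 to 8 MspI tags, 414 shared-tag sites) to -1.89 (the fifth class, from 64 tags, 48 sites). MspI classes doubled in width from 4 tags upward. The exception was 37 shared-tag sites with 5 to 9 CCGG in the last class but one, which were cut more than 20 whole-tag sites, by 1.58 (Emerald-negative) and 1.26 (Emerald-high). In the best-covered class of that density, 38 shared-tag and 27 whole-tag sites, the gap was only -0.02 and -0.17.

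**Figure D1:**
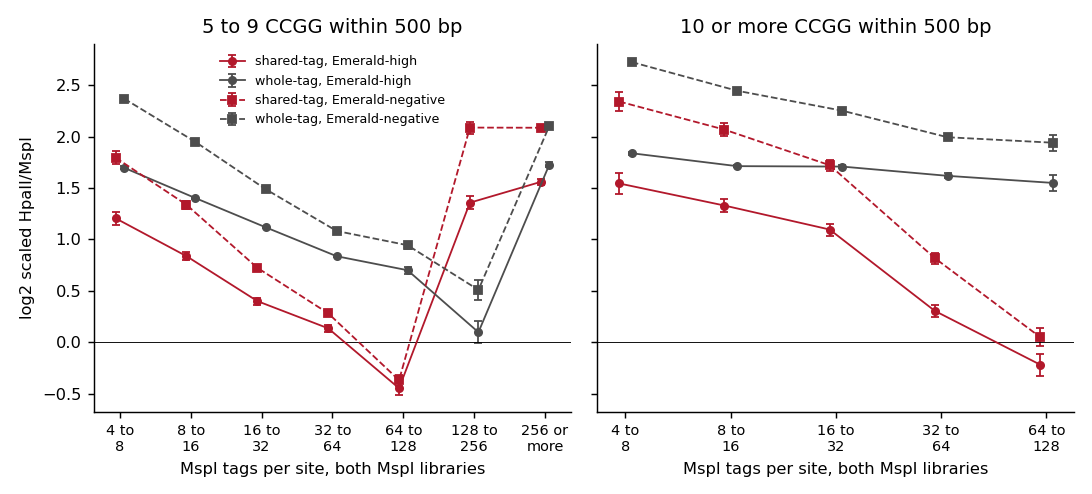
Level (log2 of scaled HpaII over scaled MspI tags, vertical axis) by the number of MspI tags per site (horizontal axis), for shared-tag (red) and whole-tag sites (grey) with 5 to 9 (left) and 10 or more CCGG (right). Circles with solid lines are Emerald-high and squares with dashed lines Emerald-negative cells, bars are 95% Poisson intervals, and classes with at least 20 sites of each kind are drawn. The red points lie below the grey ones of the same fraction except in the last class but one on the left, where the Emerald-negative gap was 1.58.

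The gap also held across chromosomes. On the 19 autosomes it averaged -0.75 ± 0.45 in Emerald-negative cells (mean ± SD across the autosomes, which come from the same libraries) and was below 0 on 18 of 19, chromosome 4 being the exception at 0.09. In Emerald-high cells it averaged -0.70 ± 0.35 and was below 0 on 19 of 19. The difference between the fractions at the shared-tag sites averaged -0.44 ± 0.14 and was below 0 on 19 of 19 autosomes with scaling to library totals, while the MspI libraries alone differed by 0.15 ± 0.07. The number of shared-tag sites ran from 180 on chromosome 16 to 872 on chromosome 4, and their share of the autosomal cluster sites from 1.90% on chromosome 15 to 5.93% on chromosome 12.

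Single shared-tag sites ranged from rarely to highly cut. The angle score, 100 × (2/π) × arctan of scaled HpaII over scaled MspI tags, is 0 with no HpaII tag and 50 with equal scaled tags. It was computed for the 1920 shared-tag sites where both MspI libraries had 10 tags or more. Their median was 33.1 in Emerald-high cells (quartiles 12.3 and 73.3) and 28.1 in Emerald-negative cells (6.26 and 77.8), against 73.3 and 78.3 at 17515 whole-tag sites. Scores under 20, sites that HpaII cut rarely, were 37.2% of the shared-tag sites in the Emerald-high fraction and 45.5% in the Emerald-negative one, against 18.3% and 23.3% of the whole-tag sites. Scores over 80 were 13.5% and 22.5% of the shared-tag sites, against 32.8% and 46.3%. Scores from 20 to 80 made up the rest, 49.3% and 32.03% of the shared-tag sites. The spread between the quartiles was wider in Emerald-negative cells, with more sites at both ends.

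Among covered sites, the contrast in scores was sharpest at 10 or more CCGG, the density of CpG islands. At fewer MspI tags the order of the densities was the other way. From 4 to 8, 8 to 16 and 16 to 32 tags, the Emerald-negative gap of summed tags was -0.38, -0.38 and -0.53 at 10 or more CCGG. At 5 to 9 CCGG it was -0.57, -0.61 and -0.76. Of 425 covered shared-tag sites at 10 or more CCGG, 46.4% (Emerald-high) and 48.5% (Emerald-negative) scored under 20, against 3.15% and 3.54% of 3303 whole-tag sites. Their median scores were 33.99 and 26.5, against 80.8 and 85.2. An array on chromosome 12, described below, holds 61 shared-tag sites of this density that share tags with each other. Those of them that are covered all scored under 20, and no share without the array was computed. Over all densities, 60 covered shared-tag sites (3.12%) had no HpaII tag in Emerald-high cells and 124 (6.46%) had none in Emerald-negative cells, although the Emerald-negative HpaII library was the deeper of the pair. Sites without any HpaII tag were not more frequent here than among whole-tag sites, of which 5.49% and 7.26% had none. A fraction in an HpaII library is itself a ground for choice and means an HpaII tag. The choice thus lowers this frequency among shared-tag sites, so the comparison does not measure cutting.

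**Figure D2:**
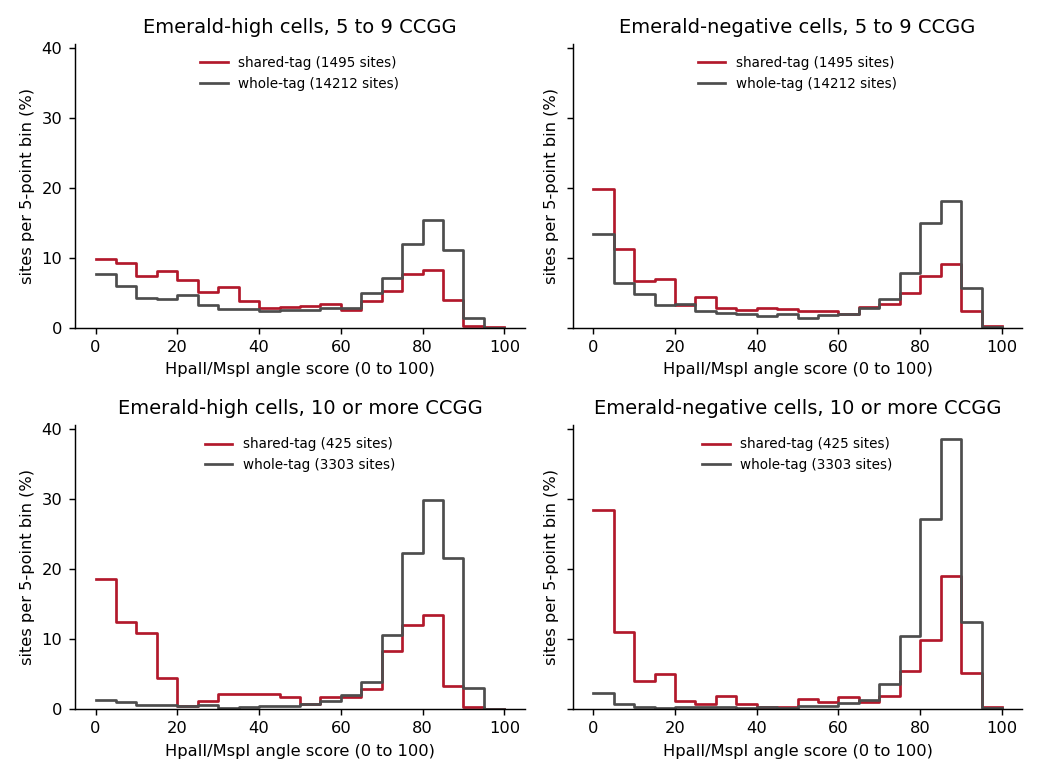
Share of covered sites (vertical axis, percent) in each 5-point bin of the HpaII/MspI angle score (horizontal axis), for shared-tag (red) and whole-tag sites (grey). Columns are the fractions and rows the 2 densities, and both MspI libraries had 10 tags or more at each site. At 10 or more CCGG in Emerald-negative cells, 28.5% of shared-tag and 2.33% of whole-tag sites lie in the lowest bin. The covered shared-tag sites of the chromosome 12 array described below, which share tags, are among the former.

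Among covered sites, more of the shared-tag sites than of the whole-tag sites had at least 2-fold higher HpaII/MspI in Emerald-high cells. With a pseudocount of 1 tag, 419 of 1920 (21.8%) were at least 2-fold higher and 138 (7.19%) at least 2-fold lower. The pseudocount was added before scaling, and the Emerald-high HpaII library was the smaller (5662614 against 9535691 tags). Where neither HpaII library has a tag, this alone puts the difference above 0 at equal scaled MspI tags. It can thus add rises at rarely cut sites of either kind, and its share in the calls was not tested. Over all 216294 covered autosomal sites, 38.5% were higher and 4.35% lower, so the shared-tag sites lay below that background for rises and above it for falls. Among the 19435 covered autosomal sites with 5 or more CCGG, 15.2% were higher and 9.21% lower, and among the whole-tag ones 14.5% and 9.43%. The median difference per covered site was 0.21 at shared-tag and -0.09 at whole-tag sites. The difference of the summed tags, which holds no pseudocount, was below 0 at both. With scaling to whole-tag dense sites, 919 were higher and 4 lower.

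The level also differed with the arrangement of CCGG around the sites, a measure that uses positions alone. For each site, the loci, at least 5 kb apart, at which the same 4 distances between 5 neighbouring CCGG recurred were counted. Sites with 20 or more such loci formed a class of their own, even or not. Of the rest, a site was called evenly spaced when it belonged to 4 CCGG in a row at equal distances of at least 10 bp. Other sites were classed by their number of loci. The evenly spaced counts thus leave out any even spacing found at 20 or more loci. Evenly spaced sites were 792 (9.46%) of the shared-tag sites and 1031 (0.380%) of the whole-tag sites, a ratio of 24.9. Spacing that recurred at 2 to 19 loci was found at 2860 (34.2%) of the shared-tag and 11761 (4.34%) of the whole-tag sites. Spacing that recurred at 20 or more loci was found at 268 (3.20%) and 57179 (21.1%), and of the latter only 2.89% had an MspI tag. The remaining 4454 shared-tag sites had a spacing found at 1 locus.

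Among the shared-tag sites, the evenly spaced class was the least cut and the class with spacing at 2 to 19 loci the most cut. The 792 evenly spaced sites had summed HpaII and MspI tags of 3545 and 10942 in Emerald-high and 5953 and 9686 in Emerald-negative cells, and levels of -0.90 (-0.954 to -0.844) and -0.74 (-0.784 to -0.690). Of the 338 that were covered, 65.7% (Emerald-high) and 76.3% (Emerald-negative) scored under 20. The 2860 sites with spacing at 2 to 19 loci had levels of 1.29 (1.27 to 1.31) and 1.89 (1.87 to 1.91) and median scores of 69.3 and 72.5 (457 covered). Those with spacing at 1 locus stood at 0.76 and 1.15 and those at 20 or more loci at 0.71 and 0.95, between these classes.

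Against whole-tag sites of the same spacing class and similar MspI tags, the gap was not the same in every class. At spacing found at 1 locus it was -0.63 in Emerald-high (-0.655 to -0.614) and -0.68 in Emerald-negative cells (-0.701 to -0.664; 3609 shared-tag sites). At 2 to 19 loci it turned, to 0.33 (0.274 to 0.389) and 0.59 (0.541 to 0.643; 1921 shared-tag against 1788 whole-tag sites), so that in this class the sites with shared tags were cut more. At 20 or more loci it was -0.11 (-0.263 to 0.0494) and -0.15 (-0.296 to -0.0111; 119 shared-tag sites), of the other sign. Evenly spaced shared-tag sites lay 0.06 (-0.0964 to 0.222) and 0.22 (0.0862 to 0.355) above 189 evenly spaced whole-tag sites. These whole-tag sites stood at -0.93 and -0.91 when weighted to the same MspI classes, and at -0.48 and -0.23 without weights. Low cutting thus went with even spacing at both kinds of sites. Leaving out evenly spaced sites of both kinds moved the overall gap to -0.46 and -0.44.

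**Figure D3:**
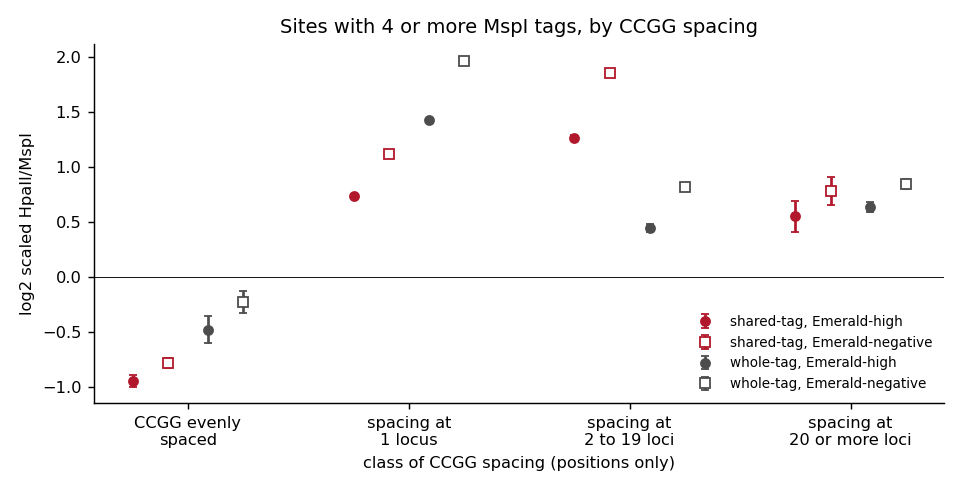
Level (log2 of scaled HpaII over scaled MspI tags, vertical axis) of shared-tag (red) and whole-tag sites (grey) with 4 or more MspI tags in 4 classes of CCGG spacing (horizontal axis), not weighted to like MspI tags. Filled circles are Emerald-high and open squares Emerald-negative cells, and bars are 95% Poisson intervals. Evenly spaced sites lie below 0 for both kinds, and at 2 to 19 loci the shared-tag sites lie above the whole-tag sites.

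The evenly spaced sites had 57 different distances, from 10 to 159 bp with a median of 33 bp over sites, and lay on all 19 autosomes in 146 runs. Runs here are shared-tag sites at most 1000 bp apart. The commonest distance was 31 bp, at 79 sites on 7 autosomes with levels of -1.89 (Emerald-high) and -2.55 (Emerald-negative). Of these, 39 lay in 1 array on chromosome 12 with 67.8% of their MspI tags, and the other 40 stood at -0.67 and -0.90. A distance of 29 bp (46 sites) gave -3.24 and -3.24, or -2.15 and -3.07 without its run with most MspI tags, and one of 40 bp (43 sites) gave -2.10 and -2.09, or -1.88 and -1.81. Not all were rarely cut: 17 bp (45 sites) gave 0.75 and 0.58 (1.26 and 0.96 without its top run), and 32 bp (36 sites) gave -0.06 and 0.98 (0.15 and 1.49). Without the chromosome 12 array, the evenly spaced sites as a whole stood at -0.74 and -0.53. Of 39 distances whose sites held at least 100 MspI tags, 26 had a level below 0 in the Emerald-negative fraction and 30 had one in the Emerald-high fraction.

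Among covered sites, a larger share of the evenly spaced ones than of all shared-tag sites was higher in Emerald-high cells. Of the 338 covered, 108 (31.95%) were at least 2-fold higher in Emerald-high cells and 9 (2.66%) at least 2-fold lower, with a median difference of 0.65. The share that was higher is below the 38.5% of all covered autosomal sites, and below the 21 of 43 (48.8%) among covered whole-tag sites with even spacing. Their summed tags gave a difference of -0.16 (-0.234 to -0.0903) and so had the other sign. A sum gives each site the weight of its tags and holds no pseudocount. The values per site hold one, which can raise the difference where HpaII tags are few, as at these sites. Which of these sets the signs apart was not tested. HpaII tags alone summed to 0.00 (-0.0562 to 0.0638) between the fractions. All these values are with scaling to library totals.

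The run with most members was an array on chromosome 12 (5062003 to 5066273, mm9), with 96 CCGG of which 61 had shared tags. Neighbouring CCGG were 31 bp apart in 62 of 95 cases and 62 bp apart in 14. Its shared-tag sites held 120.2 HpaII tags and 2125.1 MspI tags in the Emerald-high fraction, and 49.8 and 2197.1 in the Emerald-negative one. Across the 61 sites, MspI tags ran from 1.6 to 118.6 with a median of 18.8 in Emerald-high and from 2.4 to 122.5 with a median of 19.7 in Emerald-negative cells. HpaII tags ran from 0 to 6.5 with a median of 1 in Emerald-high cells and from 0 to 4 with a median of 0.4 in Emerald-negative cells. These 61 sites were thus all cut by MspI and rarely by HpaII, but having a tag was part of their choice. Of the 96 CCGG, 5 had no MspI tag in either library, and 0 of those 5 were shared-tag sites. The Emerald-high library had the higher scaled HpaII count at 49 of 61 sites, lower at 3 and equal, at 0, at 9, and these sites share tags with each other. The levels were -3.41 and -5.47 and the difference 2.06 (SE 0.25, counting error), with the MspI libraries apart by -0.06.

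**Figure D4:**
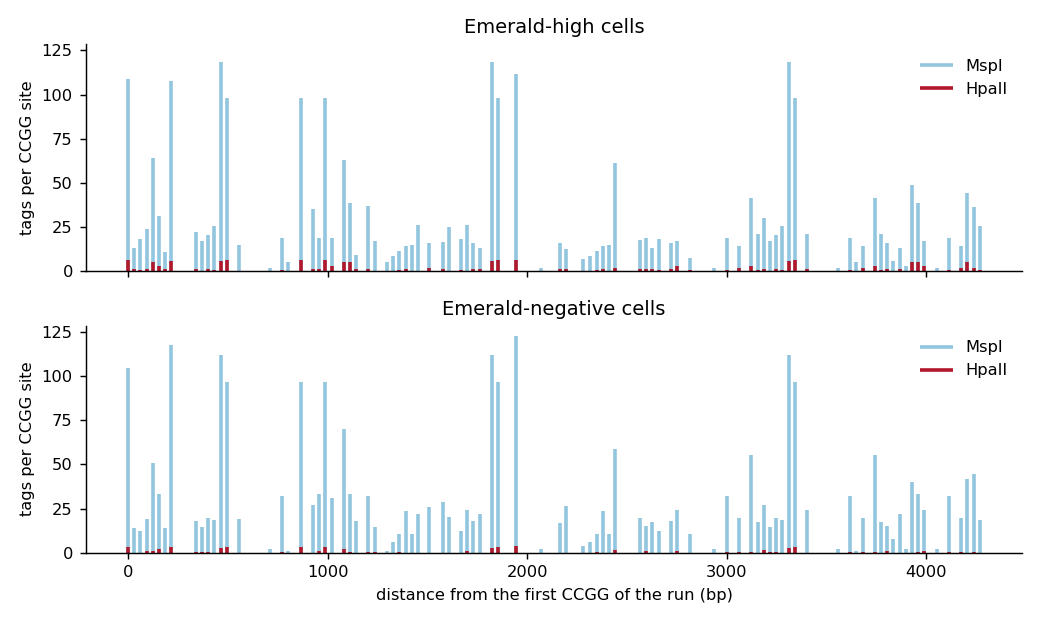
Tags at each of the 96 CCGG of the chromosome 12 array (vertical axis, tags not scaled to depth) by distance from its first CCGG in bp (horizontal axis), in Emerald-high (upper) and Emerald-negative cells (lower). Blue bars are MspI and red bars HpaII tags, both drawn from 0. MspI tags reach 122.5 while HpaII tags reach 6.5 at most, and the tallest bars repeat along the array because those sites share tags.

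Shared tags were placed by inference, where the positions of equal value numbered as many as the divisor, as for the 3290 parts above. How often unrelated positions reach equal values in this way was not tested. Of these parts, 1254 (38.1%) shared with another chromosome by this rule and 203 (6.17%) with a place over 2 Mb away on the same chromosome. Another 1081 (32.9%) shared with a place 5 kb to 2 Mb away and 752 (22.9%) within 5 kb. Of the last class 46.8% were evenly spaced, against 0.833% of those shared over 5 kb to 2 Mb and 0.0797% of those shared between chromosomes. Sharing within 5 kb went with low cutting, at levels of -0.50 (-0.569 to -0.438) in Emerald-high and -0.19 (-0.239 to -0.131) in Emerald-negative cells. Sharing over 5 kb to 2 Mb gave 1.30 and 1.79, over 2 Mb 1.14 and 1.78, and between chromosomes 1.04 and 1.54. By the number that made a part whole, over all parts with at least 4 MspI tags and whether or not as many positions were found, the levels were 0.86 and 1.31 for 2, 0.69 and 1.22 for 3, 0.55 and 1.104 for 4, and 0.17 and 0.58 for 5, but 0.84 and 1.11 for 6 to 10.

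Some of the highly cut sites lay in copies that repeated a whole cluster. On chromosome 17, clusters starting at 15097950, 15129357 and 15160725 held 23, 26 and 26 shared-tag sites. Each of the 27 CCGG of the middle cluster (15129357 to 15130489) had a counterpart 31368 bp further on, with equal tags in all 4 libraries at 27 of 27. Either copy held 261 HpaII and 132.8 MspI tags in Emerald-high and 701.8 and 113 in Emerald-negative cells, levels of 1.70 and 2.59 and a difference of -0.89. The copies' values are equal because they share their tags, so they count as 1 measurement. On chromosome 1, clusters starting at 172993917, 173000470 and 173008091 held 29, 29 and 32 shared-tag sites, and 26 of the 31 CCGG of the second recurred 7614 bp further on with equal tags at all 26. Their levels were 1.76 to 1.81 in Emerald-high and 2.31 to 2.38 in Emerald-negative cells. On chromosome 4, a value of 9.75 and 4.2 (Emerald-high HpaII and MspI) and 22.15 and 5.125 (Emerald-negative) stood at 10 positions between 41720209 and 42748208, all of them shared-tag sites. These clusters were chosen after their values were seen.

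A few runs held a large part of the tags. The 3275 runs included 1673 with 1 site and 498 with 5 or more, which held 46.0% of the sites. The 5 runs with most MspI tags held 17.4% of the HpaII and 12.3% of the MspI tags of all shared-tag sites in the Emerald-high fraction, and 18.1% and 12.2% in the Emerald-negative one. The first was on chromosome 17 (39983183 to 39984577, 9 shared-tag sites among 18 CCGG). It held 8285.2 HpaII and 4284.5 MspI tags in Emerald-high and 17966.7 and 3553.5 in Emerald-negative cells, with levels of 1.68 and 2.30. The chromosome 12 array came second. It was the only rarely cut run of the 8 with most MspI tags.

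The other runs with most MspI tags were highly cut in both fractions, and tied to the first by shared tags in several cases. On chromosome 6 (3150951 to 3151422), 3 sites held 2673 and 1552.5 tags in Emerald-high and 6590.5 and 1486 in Emerald-negative cells. The chromosome 17 run at 39980081 to 39980256 held 2720 and 1591.5, and 5816.5 and 1400. The chromosome 10 run at 82417641 to 82418064 held 2874.7 and 1396.5, and 5715.2 and 1093. In 5 sites of the first chromosome 17 run, 8 tag values recurred on chromosome 6 at 1 constant shift in position, and in 4 sites 4 values recurred on chromosome 10 in inverted order. Differences in these 4 runs were -0.62, -0.60, -0.52 and -0.58 with scaling to library totals. Each lay below the -0.46 of all shared-tag sites, a sum that includes these runs. Shared tags make these runs partly 1 measurement. Without the 5 runs with most tags, the levels of all shared-tag sites were 0.74 and 1.19, and the gaps to weighted whole-tag sites -0.63 and -0.63.

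The last 3 of the 8 runs with most MspI tags were highly cut too. A lone site on chromosome 5 (147072753) held 2727.5 and 1253.5 tags in Emerald-high and 5292.7 and 1126.7 in Emerald-negative cells (difference -0.35). On chromosome 12 at 100883356 to 100883840, 4 sites held 1480.2 and 943.8, and 4037.8 and 827.8 (difference -0.87). On chromosome 3 at 61962941 to 61963051, 2 sites held 1734.5 and 702.5, and 2756.2 and 701.2. This last run was the only one of the highly cut 7 with a difference above 0, at 0.09 (SE 0.09). Of its tags, 1727.5 and 685.5, and 2740.7 and 682.7, are a divided value that also stands at the chromosome 5 site, so these runs are not separate measurements.

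Among runs with enough tags, changes of at least 2-fold were more often rises than falls, while 322 of 691 runs, fewer than not, had a difference above 0. The 691 runs in which both MspI libraries had 20 tags or more and lay within 0.5 (log2) of each other included 108 (15.6%) at least 2-fold higher in Emerald-high cells and 20 (2.89%) at least 2-fold lower, with a pseudocount of 1 tag and scaling to library totals. Their median difference was -0.08 (quartiles -0.50 and 0.66). Of 54 runs in which most sites were evenly spaced, 19 (35.2%) were higher and 0 lower. The 38.5% of all covered autosomal sites that were higher is a share of single sites, with 10 MspI tags or more per library and no MspI limit. It is thus no like measure, and no share over runs of whole-tag sites was computed. The 54 runs had a median level of -2.68 in Emerald-negative cells and a median difference of 0.66. Of the 637 other runs, 89 (14%) were higher and 20 (3.14%) lower, with a median level of 0.56 and a median difference of -0.12. With a pseudocount of 5 tags, 96 runs were higher and 6 lower. Either pseudocount was added before scaling to HpaII libraries of unequal size, so it can raise the difference of runs with few HpaII tags. Most exposed are the rarely cut runs, among them the evenly spaced ones. How far this adds to the excess of rises was not tested.

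**Figure D5:**
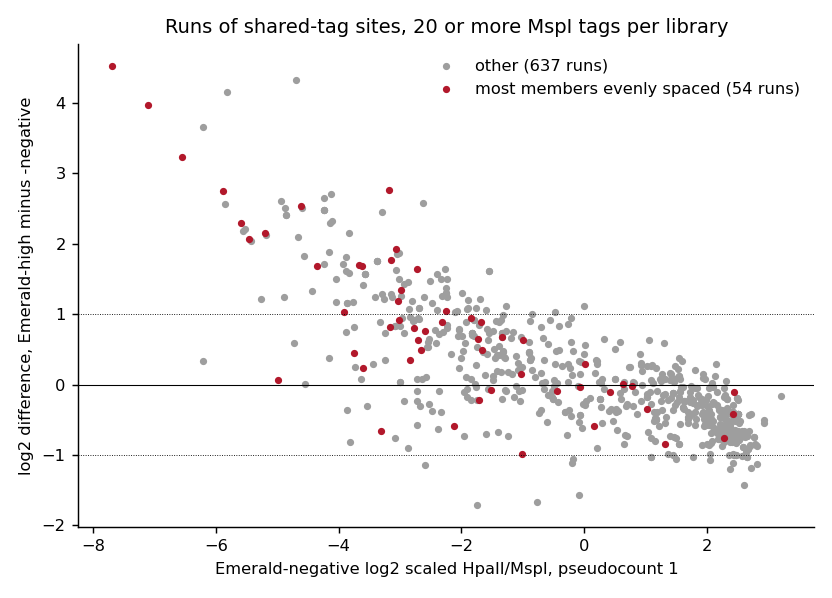
Difference in log2 HpaII/MspI, Emerald-high minus Emerald-negative (vertical axis), by the Emerald-negative level (horizontal axis) of 691 runs, with a pseudocount of 1 tag and scaling to library totals. Red points are the 54 runs with mostly evenly spaced sites, grey points the other 637, and dotted lines mark 2-fold changes. Runs at low levels reach 4.53 and those above a level of 2 lie mostly below 0, and the Emerald-negative value enters both axes. The pseudocount was added before scaling and can raise the difference of runs with few HpaII tags.

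The 6 runs with the largest rises all had regular distances between CCGG. Only those on chromosomes 15, 17 and 10 held evenly spaced sites as defined above. On chromosome 15 (86053878 to 86054207), 7 sites, mostly 47 bp apart, held 10.3 HpaII and 168.2 MspI tags in Emerald-high and 0 and 201.8 in Emerald-negative cells. With 3 tags in place of the count of 0 over the run, scaled HpaII tags were 5.80-fold higher in Emerald-high cells. This is not a lower bound, because the small Emerald-high count has its own counting error. The SE of the log2 difference was 1.51 with a pseudocount of 1 tag. On chromosome 17 (89109369 to 89109717), 5 sites at distances of 87 bp held 7.83 and 127.8, and 0 and 133.7 (4.40-fold higher with 3 tags in place of 0). On chromosome 6 (4706288 to 4706378), 3 sites 45 bp apart held 8 and 46, and 0 and 54 (4.49-fold higher in the same way). These 3 runs had no HpaII tag in the deeper Emerald-negative library.

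The other rises had regular distances too. On chromosome 5 (142151082 to 142151379), 5 sites at distances of 33, 66 and 132 bp held 5 and 57 tags in Emerald-high and 0 and 71 in Emerald-negative cells. That is 2.81-fold higher with 3 tags in place of 0, but from only 5 HpaII tags. On chromosome 10 (111415781 to 111416037), 7 sites mostly 32 bp apart held 5 and 99, and 0 and 91 (2.81-fold higher, with the same limit). On chromosome 3 (121156221 to 121156728), 8 sites at distances of 39 and 117 bp held 25.1 and 55.2, and 1.14 and 53.3 (difference 4.32, SE 1.06, counting error). In all 6 runs, each distance between neighbouring CCGG was a multiple of the shortest, a looser rule than even spacing. This was so in 71 (13.1%) of the 541 runs with 3 or more CCGG and in 31 (41.3%) of the 75 such runs that were at least 2-fold higher. Among the 71, the median Emerald-negative level was -2.83, the median difference 0.94, and 57 lay above 0. These differences include the pseudocount, which can raise them where HpaII tags are few.

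None of the 6 runs with the largest falls had such regular spacing. The sizes of these falls cannot be set against those of the 5 rises over 0 tags, for which 3 tags took the place of 0. On chromosome 13 (108222619 to 108222830), 2 sites held 1 HpaII and 35 MspI tags in Emerald-high and 7 and 25 in Emerald-negative cells (difference -1.71, SE 1.20). On chromosome 10, the run at 74138076 to 74138159 held 2.5 and 30.5, and 14 and 24 (-1.67, SE 0.94), and the run at 60609807 to 60610009 held 37.5 and 27, and 145.5 and 22.5 (-1.42, SE 0.48). On chromosome 9 (105055946 to 105056186), 3 sites held 7.5 and 43, and 31.5 and 32.5 (-1.57, SE 0.65). The last falls had more HpaII tags behind them. On chromosome 1 (169270499 to 169270637), 5 sites held 332.4 and 240.2, and 954.5 and 177.0 (-1.20, SE 0.17). On chromosome 19 (11023303 to 11023543), 9 sites held 87.8 and 49.5, and 329.8 and 48 (-1.18, SE 0.34). The SE is the counting error of the log2 difference.

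Rarely cut and highly cut shared-tag sites changed in opposite directions, with scaling to library totals. To keep the sorting apart from the measurement, 1 part of the tags gave each site an Emerald-negative score (with at least 10 MspI tags of both fractions in that part) and the other part gave the difference. Sorted by the first part, 965 shared-tag sites under a score of 20 had a difference of 0.39 (0.271 to 0.506), and 499 over 80 one of -0.73 (-0.797 to -0.672). Sorted by the second part, 1003 sites under 20 had 0.18 (0.103 to 0.261) and 580 over 80 had -0.67 (-0.734 to -0.614). Whole-tag sites gave 0.53 and 0.45 under 20, and -0.55 and -0.51 over 80. Evenly spaced shared-tag sites under 20 stood at 0.48 (0.225 to 0.743; 264 sites) and 1.15 (0.892 to 1.42). For the evenly spaced and for all shared-tag sites under 20, the intervals of the 2 sortings do not overlap, so the size of these differences depends on which part sorts them. The order from rarely to highly cut sites was the same with either part. Scaling to whole-tag dense sites would shift all these strata alike. Those sites stood at a difference of -0.73, near that of the highly cut shared-tag sites. With that scaling the order would remain, but no clear fall at the highly cut sites.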

How the data were processed

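HELP tagging libraries of 2 cell fractions cut with 2 enzymes were compared, 1 library each. The authors deposited estimated counts of tags per CCGG position, in 2 parts and their sum, not scaled to depth; per the file headers the totals were 5662614 to 9535691 tags, which the sums over sites equalled. The genome build is mm9, per the submitters' processing notes. Which aligner was used, what the parts are and how a tag matching several positions was counted is not given in these sources. No genome or annotation of mm9 was used, so positions carry no gene names and no sequence.

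From these counts, tags were summed and scaled to library totals, and whole-tag sites were weighted to the density and MspI classes of the shared-tag sites. Named runs were the 8 with most MspI tags and, among runs in which both MspI libraries had 20 tags or more and lay within 0.5 (log2) of each other, the 6 largest rises and the 6 largest falls. Also named by rule were the 5 largest groups of equal values. The sites, classes and rules were chosen with earlier results of these data known. The spacing classes, the comparison within them, the placing of shared tags, the sorting by parts, the copied clusters and some of the alternatives were chosen after seeing the data. Alternatives changed the scaling, membership, minima, pseudocount, part of the count and sites with most tags. The scripts (pandas 2.3.3, numpy 2.4.6 and scipy 1.17.1 in Python 3.11.15; plots by matplotlib 3.10.9) were tested on simulated data.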

Additional observations from a re-analysis of the deposited data

How the results depend on the processing

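No paired analysis was possible because each group had 1 library. Values are given as Emerald-high and Emerald-negative log2 levels, and as the difference between them. Scaled to whole-tag sites with 10 or more CCGG, the shared-tag sites stood at -0.96 and -1.23 (difference 0.27; 0.30 at 5 to 9 and 0.16 at 10 or more CCGG) and the weighted whole-tag sites at -0.41 and -0.70 (difference 0.30), so signs turned and the gap kept its value by construction. The median scores then were 10.5 and 5.25, with 919 sites at least 2-fold higher and 4 lower.

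Keeping sites with fractions in an MspI library gave shared-tag levels of 0.78 and 1.24 and gaps of -0.61 and -0.59. Without the 0.1% of autosomal sites with most MspI tags (159 shared-tag sites), shared-tag levels were 0.51 and 0.96, weighted whole-tag levels 1.17 and 1.63 (difference -0.45), and gaps -0.71 and -0.74, differing by 0.0274. Without the 5 runs with most MspI tags, these levels were 0.74 and 1.19, and 1.34 and 1.77, with gaps of -0.63 and -0.63. The first part alone gave weighted whole-tag levels of 1.32 and 1.73 (difference -0.41) and gaps of -0.52 and -0.48. The second part gave 1.43 and 1.88 (difference -0.45) and gaps of -0.62 and -0.62. With equal values counted once (4952 value sets), the shared-tag difference was -0.43, the Emerald-negative level 1.26, the Emerald-high whole-tag level 1.39 and the Emerald-negative gap -0.59, and the gaps differed by 0.00589.

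At least 1 MspI tag gave whole-tag levels of 1.39 and 1.83. At least 20 gave 1.34 and 1.72 (difference -0.38) and gaps of -0.61 and -0.57. Whole-tag sites with spacing at 1 locus gave 1.39 and 1.83 and an Emerald-negative gap of -0.57. Without evenly spaced sites the levels were 1.40 and 1.84 and the gaps -0.46 and -0.44. The last 2 were chosen after seeing the data. The gap was below 0 in both fractions under every alternative run, from -0.71 to -0.46 and from -0.74 to -0.44. A tolerance of 0.01 changed nothing.

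With at least 5 MspI tags per library the median scores were 45.3 and 42.9, with 704 sites higher and 380 lower. With at least 20 they were 28.6 and 20.4, with 163 and 39. A pseudocount of 5 tags left 59 lower. The causes of these shifts were not tested. Depth limits single sites most: the median shared-tag site held 3.5 to 6.5 tags per library, and 1920 of 8374 were covered.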
